A study of Homo sapiens with 12 samples.

Results

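Iron handling in 2 human ovarian cancer cell lines was followed through 10 genes of iron uptake, storage, release and control: TFRC, SLC11A2, SLC39A14, STEAP3, FTH1, FTL, NCOA4, SLC40A1, ACO1 and IREB2. They were taken by symbol and are 10 of the 19251 genes listed for every library. The choice was made with earlier results of these data known. All 10 were above the low-value limit for testing, which was a normalised read count of at least 10 in at least 3 libraries and left 17616 genes.

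Cells take up iron mainly as transferrin bound to the transferrin receptor (TFRC), reduce it in the endosome with STEAP3 and pass it to the cytosol through the transporter SLC11A2, also called DMT1. SLC39A14, also called ZIP14, carries iron that is not bound to transferrin. Iron that is not used is stored inside ferritin, a shell of heavy (FTH1) and light (FTL) chains, which the cargo receptor NCOA4 takes to the lysosome for release, while ferroportin (SLC40A1) is the exporter. The iron regulatory proteins ACO1 (IRP1) and IREB2 (IRP2) bind iron responsive elements, short RNA hairpins, when iron is scarce. Bound in the 3′ UTR of the TFRC mRNA they protect it from decay, and bound in the 5′ UTR of ferritin mRNAs they block translation, so that ferritin output can change with no change in its mRNA.

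RNA sequencing covered 12 libraries in 4 groups of 3. CAOV3 is labelled as a high grade serous line and TOV21G as a clear cell line, both epithelial, from ovary and wild type. The ascites groups were exposed for 16 h to 10% ovarian cancer ascites, the fluid that collects in the abdomen, added as 150 µL to wells with 1.5 mL of DMEM with 10% serum. The control groups are labelled as having no treatment, and the labels describe no fluid added in place of the ascites. The study asked which transcripts change when these lines meet the fluid. Nothing in the labels says that the 3 libraries of a group came from separate cultures, so the p-values measure the spread between these libraries, which may be technical. In bulk RNA, a smaller share of cells that express a gene and less RNA per cell cannot be told apart.

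The libraries held 26697609 to 34491304 reads on the listed genes. Of the clear cell markers, GPX3 was at 248 to 294 in TOV21G controls and at 0 in all CAOV3 libraries, NAPSA was at 5.24 to 11.9 against 2.27 to 4.30, and ANXA4 was at 3577 to 4207 against 3023 to 3429. The Müllerian marker PAX8 and WT1, a marker of serous tumours, were low in the line labelled serous, at 18.2 to 20.4 and 2.15 to 5.94 in CAOV3 controls, against 6797 to 7309 and 219 to 234 in TOV21G controls. Among markers of blood cells and fibroblasts that ascites can carry, 3 of 11 were among the listed genes, and PTPRC, CD3E, CD68 and the haemoglobins HBA1, HBA2 and HBB were not. Their summed level was 791 to 833 in CAOV3 controls and 736 to 789 with ascites, and 1835 to 2041 and 1779 to 1935 in TOV21G. The sum of the 7 epithelial and ovarian markers was 136347 to 137655 in CAOV3 controls and 161575 to 170970 with ascites, led by the keratins KRT8 and KRT18, which rose by 0.29 ± 0.06 and 0.33 ± 0.06 (log2 ± SE; limma adjusted p = 0.0231 and 0.0102). CDH1, of the same list, read 389 to 455 in CAOV3 controls and 266 to 281 with ascites, and did not pass (log2 difference -0.64, SE 0.32; limma adjusted p = 0.438). Its groups did not overlap in CAOV3, and the SE comes from a spread shared with the TOV21G libraries. There CDH1 was low, at 6.29 to 17.3 in controls and 6.63 to 14.3 with ascites. In TOV21G the sum was 18552 to 19498 in controls and 19963 to 20722 with ascites, and PAX8 had a log2 difference of 0.33 that did not pass (SE 0.08; limma adjusted p = 0.161). PAX8 read 6797 to 7309 in TOV21G controls and 8464 to 9342 with ascites, with no overlap. Its SE too comes from a spread shared with the other line, where PAX8 was low. Whether these shifts have a part in the iron results was not tested.

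Sequences that match the hairpins named above are printed, for the members that have one, to show at which end of the mRNA the match lies. The 5′ and 3′ UTRs of GENCODE release 29 transcripts (GRCh38) were searched on the transcript strand. The pattern was 5 bases, an unpaired C, 5 bases, the loop CAGTGN with a last base other than G, and 5 plus 5 bases closing the stem. All 5 upper pairs and at least 4 of the 5 lower pairs were required, with G-T pairs allowed. A second form allowed 1 unpaired base in the 3′ strand of the upper stem. Capitals mark the loop, and sequences are the DNA letters of the sense strand, 5′ to 3′. The first 4 lines are the 3′ UTR matches of TFRC, in the order of their coordinates, the next is the 3′ UTR match of SLC11A2 in the second form, and the last 3 are 5′ UTR matches in the first form.
TFRC chr3:196050464-196050490 minus strand: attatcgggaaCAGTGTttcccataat
TFRC chr3:196050511-196050537 minus strand: tgtatcggagaCAGTGAtctccatatg
TFRC chr3:196050576-196050602 minus strand: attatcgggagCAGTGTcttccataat
TFRC chr3:196050980-196051006 minus strand: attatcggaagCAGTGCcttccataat
SLC11A2 chr12:50988269-50988296 minus strand: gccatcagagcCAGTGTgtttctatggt
FTH1 chr11:61967575-61967601 minus strand: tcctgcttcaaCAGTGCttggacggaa
FTL chr19:48965336-48965362 plus strand: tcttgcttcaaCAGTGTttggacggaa
SLC40A1 chr2:189580662-189580688 minus strand: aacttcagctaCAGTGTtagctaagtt

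The first form occurred in the 5′ UTR of 4 of 19043 protein-coding genes (0.021%) and in the 3′ UTR of 9 of 19146 (0.047%). The second form occurred in 4 (0.021%) and 25 (0.131%). The other 5 members had no match, which says only that these letters were not in these windows, and a match is a description of sequence, not of binding. The TFRC sites lie in 3 of 4 coding transcripts, the SLC11A2 site in 5 of 18, the FTH1 site in 7 of 8, the FTL site in the only 1 and the SLC40A1 site in 1 of 5. Counts were summed per gene, so transcripts with and without a site were measured together. The build used for counting is not given in the sources used here, and the coordinates played no part in any test.

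Both members with a match in the 3′ UTR were lower in CAOV3 cells kept with ascites, and no other member passed the test there. TFRC fell by 0.49 on the log2 scale and SLC11A2 by 0.23, while the ferritin chains, the exporter and the regulators did not pass the test. Of all genes tested, 1.73% passed in this comparison and 1.1% passed as lower, against 2 of 10 members, both lower (limma, Benjamini-Hochberg adjusted p under 0.05). The libraries of the 2 groups did not overlap for the same 2 of 10 members, and for 24.2% of all genes. The median log2 difference was -0.01 over the members and -0.0021 over all genes tested. In TOV21G, 0 of 10 members passed, against 0.409% of all genes.

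**Figure D1:**
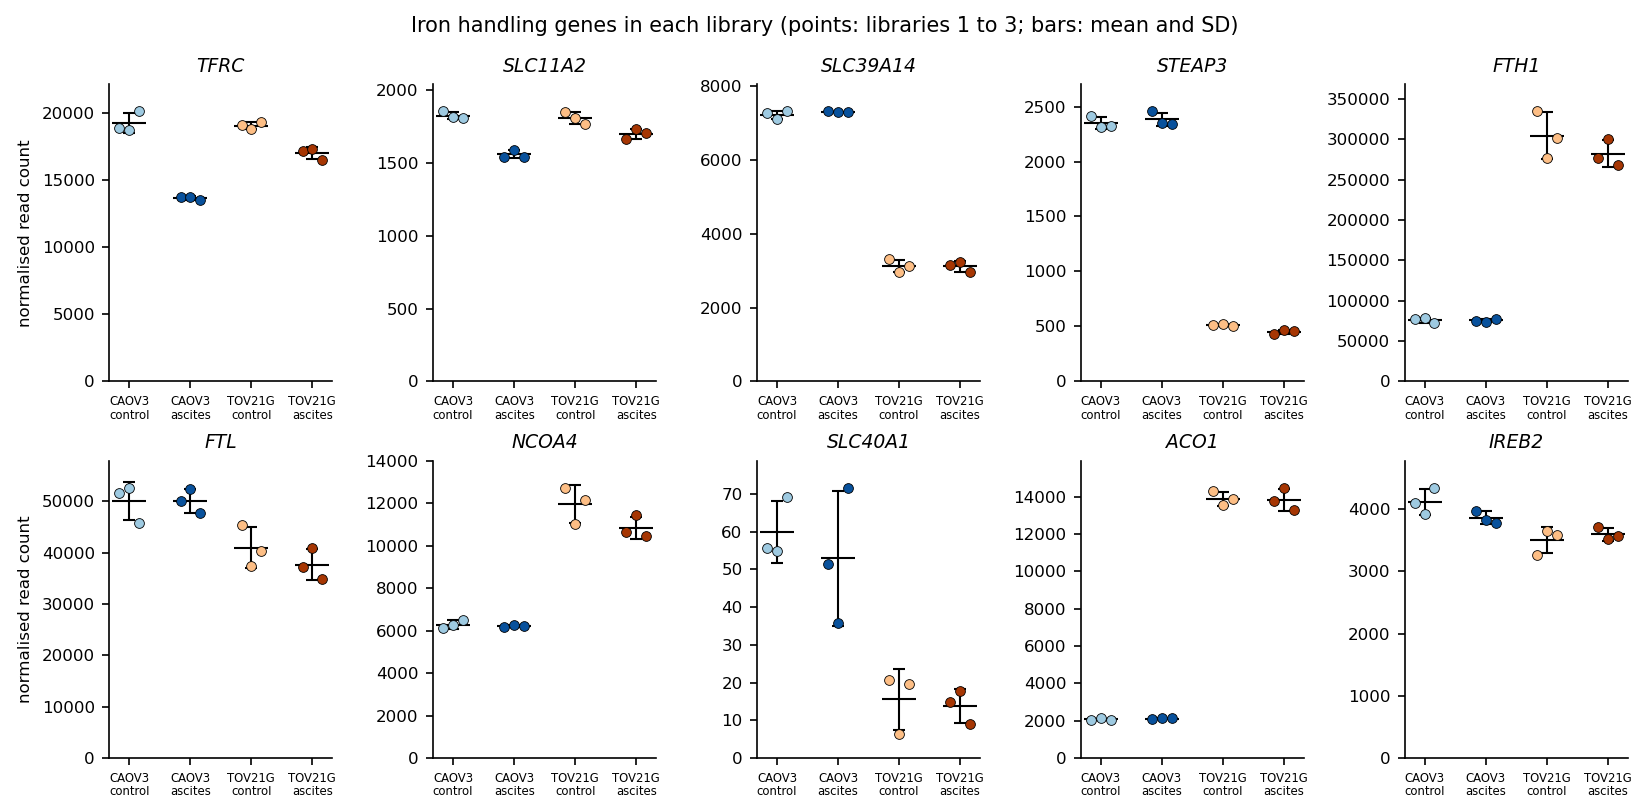
Normalised read counts (y axis, from 0) of the 10 genes in each library, with 1 point per library and the mean and SD of each group of 3 as bars. TFRC has means of 19219 and 19038 in the control groups and of 13666 in CAOV3 with ascites, whereas FTH1, ACO1 and NCOA4 separate the lines and STEAP3 and SLC39A14 do so in the other direction.

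TFRC, the receptor for iron-loaded transferrin, read 18863, 18713 and 20081 in the CAOV3 controls and 13752, 13748 and 13499 with ascites. Every ascites library was below every control, and the ascites group was tighter than the controls. The means were 19219 ± 750.0 and 13666 ± 145 (SD, n = 3 each), 28.9% lower with ascites. The log2 difference was -0.49 (SE 0.04; limma adjusted p = 6.06e-05), which ranked 7 by p-value among the 17616 genes. It passed in all 9 alternative fits and in all 12 fits that left out a library.

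In TOV21G the same gene read 19056, 18749 and 19309 in controls and 17175, 17319 and 16489 with ascites. Here too every ascites library lay below every control, but the gap was smaller. The means were 19038 ± 281 and 16995 ± 443 (SD, n = 3 each), 10.7% lower, with a log2 difference of -0.16 (SE 0.04). This did not pass (limma adjusted p = 0.161). On whole reads recovered from the values, DESeq2 called it (-0.16, adjusted p = 0.00355) and edgeR did not (-0.14, adjusted p = 0.145).

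The response of TFRC differed between the lines. The TOV21G response minus the CAOV3 response was 0.33 (SE 0.06; limma adjusted p = 0.0264), so the fall was larger in CAOV3, and TFRC was the only 1 of 10 members called, against 0.545% of all genes. This contrast uses the same controls as the comparisons within each line. The call was lost in 8 of the 12 fits without a library. They were those without any 1 of the 6 CAOV3 libraries, without TOV21G control 3 and without TOV21G ascites 1, with adjusted p from 0.0512 to 0.0930 and differences from 0.30 to 0.35.

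SLC11A2, which moves ferrous iron out of the endosome, read 1851, 1810 and 1807 in CAOV3 controls and 1541, 1588 and 1542 with ascites. The groups did not overlap, and the means of 1823 ± 24.5 and 1557 ± 26.7 (SD, n = 3 each) put the ascites group 14.6% lower. The log2 difference was -0.23 (SE 0.04; limma adjusted p = 0.00440). This call held in 8 of the 9 alternative fits and in all 12 fits that left out a library. In TOV21G SLC11A2 read 1846, 1804 and 1768 in controls and 1660, 1730 and 1702 with ascites, again with no overlap. The log2 difference of -0.09 (SE 0.04) did not pass there (limma adjusted p = 0.468). The responses of the lines differed by 0.14 (SE 0.05), which did not pass either (limma adjusted p = 0.323).

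STEAP3, the endosomal reductase that prepares iron for SLC11A2, stood apart from both in CAOV3. Its controls read 2413, 2317 and 2320 and its ascites libraries 2455, 2352 and 2342, which overlap, with a log2 difference of 0.02 (95% interval -0.08 to 0.12). In TOV21G it read 512, 522 and 501 in controls and 428, 466 and 455 with ascites. There all ascites libraries were lower, by 0.18 on the log2 scale (SE 0.04), and the difference did not pass (limma adjusted p = 0.133). The difference between the lines' responses, -0.20 (SE 0.06), also did not pass (limma adjusted p = 0.244).

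SLC39A14, the transporter for iron not bound to transferrin, had nearly the same level with and without ascites. In CAOV3 it read 7101 to 7313 in controls and 7292 to 7313 with ascites, and in TOV21G 2966 to 3306 and 2963 to 3239. The log2 differences were 0.02 (95% interval -0.08 to 0.11) and -0.01 (95% interval -0.10 to 0.09).

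In TOV21G, 3 of the 10 members (TFRC, SLC11A2 and STEAP3) had all ascites libraries below all controls. Over all genes tested, 6.99% had that arrangement there and 11.1% had no overlap in either direction. The median log2 difference in TOV21G was -0.10 over the members and -0.02 over all genes tested. At an unadjusted p under 0.05, 4 of 10 members were reached in TOV21G, against 9.17% of all genes. They were TFRC, STEAP3, SLC11A2 and NCOA4, each lower with ascites.

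**Figure D2:**
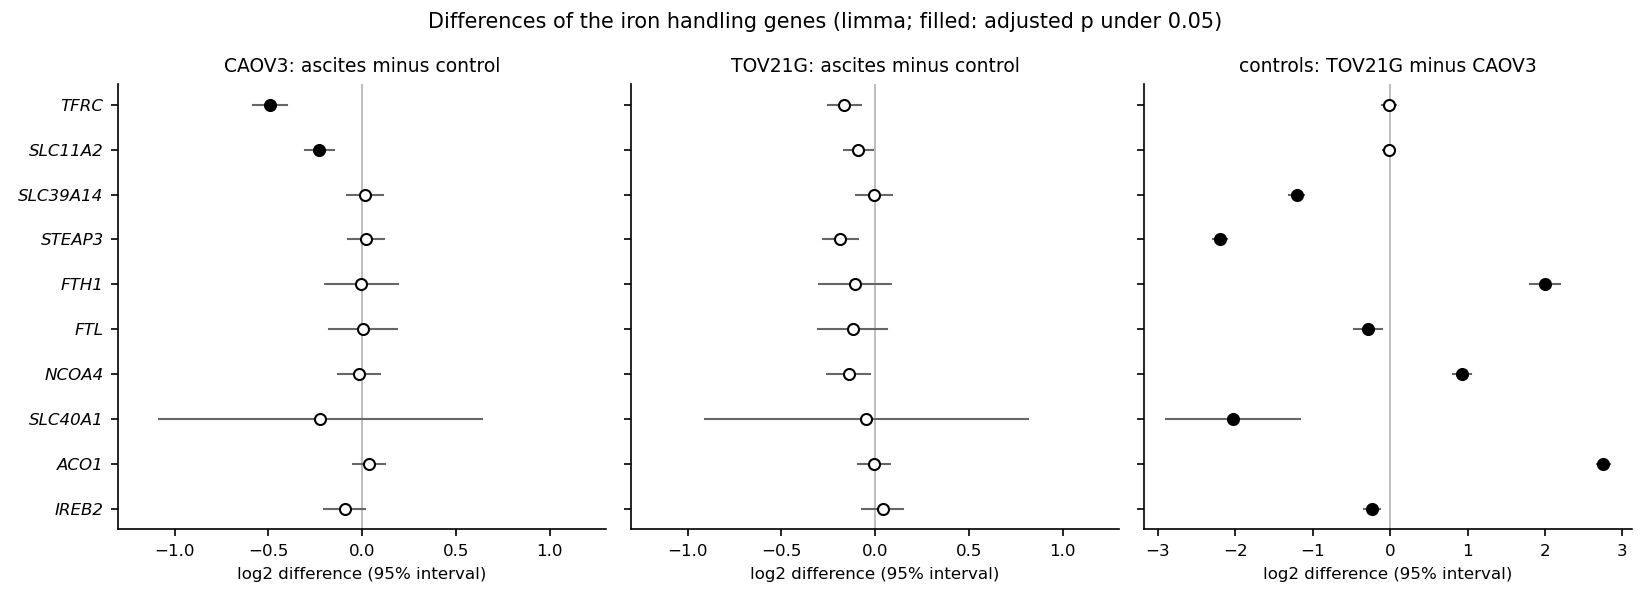
Log2 differences (x axis) with 95% intervals for the 10 genes, in CAOV3 and in TOV21G with ascites against control, and in TOV21G controls against CAOV3 controls, the last on a wider axis. Filled points passed at a limma adjusted p under 0.05: TFRC and SLC11A2 in CAOV3, none in TOV21G, and 8 of 10 between the lines.

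Neither ferritin chain passed the test in CAOV3. FTH1, the heavy chain that oxidises iron as it enters the shell, read 77238, 77989 and 72506 in controls and 75410, 73959 and 77713 with ascites. The groups overlapped throughout, and the log2 difference was -0.00 (95% interval -0.20 to 0.19). FTL, the light chain that favours iron mineral formation, read 51638, 52629 and 45787 in controls and 50103, 52456 and 47788 with ascites. Its log2 difference was 0.00 (95% interval -0.18 to 0.19). A change of ferritin mRNA as large as the fall of TFRC is outside both intervals.

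In TOV21G the intervals of the ferritin chains were as wide because the model gave each gene 1 spread over all 4 groups. The width thus says nothing of the scatter in TOV21G itself, which the library values show. FTH1 read 334286, 276386 and 301770 in controls and 276842, 300514 and 268267 with ascites, and FTL read 45317, 37402 and 40304 against 37274, 40919 and 34857. For both, control 1 was the highest of the 6 libraries and the groups overlapped. The log2 differences were -0.11 (95% interval -0.30 to 0.09) and -0.12 (95% interval -0.30 to 0.06).

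NCOA4, the receptor that delivers ferritin to the lysosome, read 6104, 6255 and 6496 in CAOV3 controls and 6176, 6247 and 6207 with ascites, a log2 difference of -0.02 (95% interval -0.13 to 0.10). In TOV21G it read 12729, 11016 and 12177 in controls and 10662, 11434 and 10446 with ascites. The 2 groups overlapped through control 2 and ascites 2, and the log2 difference of -0.14 (SE 0.05) did not pass (limma adjusted p = 0.444).

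SLC40A1, the exporter ferroportin, had the lowest counts of the members, and its intervals were the widest. It read 55.6, 54.9 and 69.3 in CAOV3 controls and 51.4, 35.8 and 71.6 with ascites. In TOV21G it read 20.6, 6.29 and 19.7 in controls and 14.9, 17.7 and 8.95 with ascites. The log2 differences were -0.22 (95% interval -1.08 to 0.64) and -0.05 (95% interval -0.91 to 0.81), and both intervals include a change of the size of the TFRC fall.

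The regulators did not pass either. ACO1, the regulator that doubles as the cytosolic aconitase when it holds an iron-sulphur cluster, read 2024, 2118 and 2035 in CAOV3 controls and 2077, 2112 and 2134 with ascites, a log2 difference of 0.03 (95% interval -0.05 to 0.12). In TOV21G it read 13529 to 14276 in controls and 13275 to 14458 with ascites, a log2 difference of -0.01 (95% interval -0.09 to 0.08). IREB2, the regulator that is degraded when iron is plentiful, read 4095, 3925 and 4340 in CAOV3 controls and 3978, 3820 and 3780 with ascites. Those groups overlapped through control 2 and ascites 1, with a log2 difference of -0.09 (SE 0.05; limma adjusted p = 0.467). In TOV21G its log2 difference was 0.04 (95% interval -0.07 to 0.15). Both regulators act mainly through their protein and its cluster, which RNA counts do not show.

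The ratio of TFRC to FTH1 within a library does not depend on the scaling of libraries. It sets the mRNA of an uptake gene against that of a storage gene. TFRC was 24.4%, 24.0% and 27.7% of FTH1 in the CAOV3 controls and 18.2%, 18.6% and 17.4% with ascites. All ascites libraries were below all controls, and the mean log2 ratio moved by -0.49. In TOV21G the ratio was 5.70%, 6.78% and 6.40% in controls and 6.20%, 5.76% and 6.15% with ascites. These overlap, with a move of -0.06, which ran from -0.13 to -0.0011 when 1 library was left out. Neither ratio was tested.

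**Figure D3:**
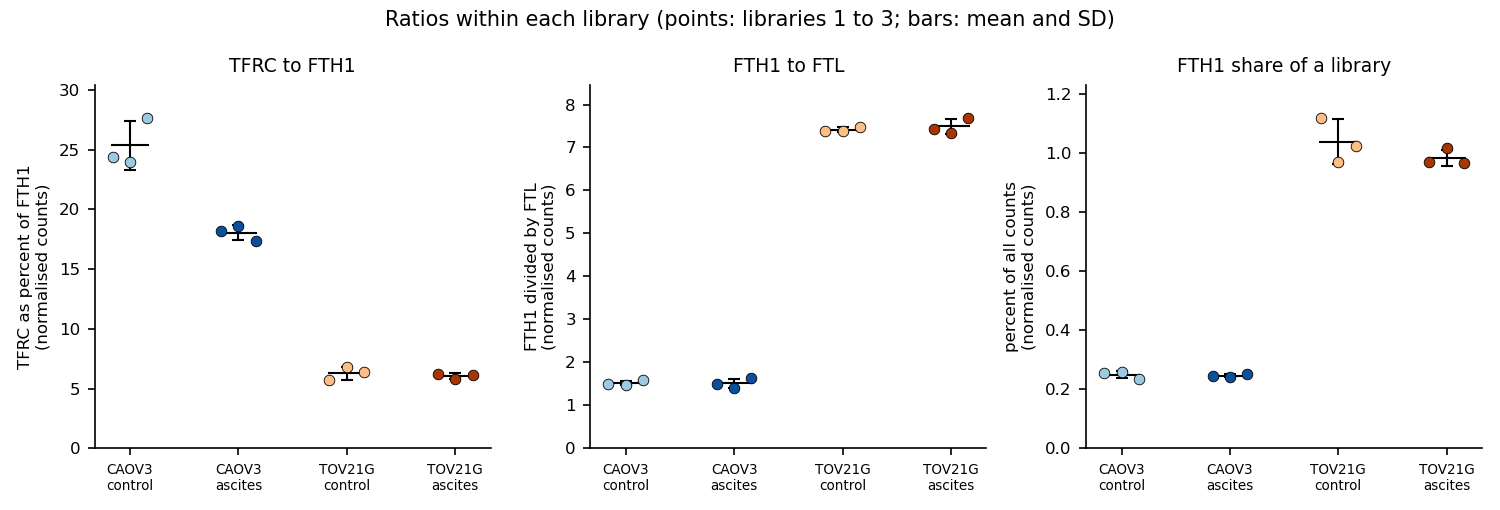
Left, TFRC as a percentage of FTH1, middle, FTH1 divided by FTL, and right, FTH1 as a percentage of all normalised counts of a library, each from 0, with 1 point per library and the mean and SD of 3 as bars. TFRC to FTH1 goes from 24.0% to 27.7% down to 17.4% to 18.6% in CAOV3 and overlaps in TOV21G, and FTH1 to FTL is near 1.5 in CAOV3 and near 7.4 in TOV21G.

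Without ascites the lines differed in storage, control and uptake genes alike, and TFRC and SLC11A2 were the members that did not pass the test between them. Of the members, 8 of 10 passed (limma), 3 higher and 5 lower in TOV21G, where 82.2% of all genes passed, 40.8% higher and 41.4% lower. The 8 members were also those whose control libraries did not overlap, against 82.6% of all genes. The count of members is thus near that of any gene, and the sizes below carry the description.

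The ferritin heavy chain was 4.01 times as high in TOV21G controls (304148 ± 29023) as in CAOV3 controls (75911 ± 2972; SD, n = 3 each), a log2 difference of 1.999 (SE 0.09; limma adjusted p = 8.91e-11). FTH1 took 0.969% to 1.12% of all normalised counts in TOV21G and 0.236% to 0.257% in CAOV3. The light chain went the other way, with 41008 ± 4005 in TOV21G and 50018 ± 3698 in CAOV3, a log2 difference of -0.29 (SE 0.08; limma adjusted p = 0.00632). The 2 sets of control libraries did not overlap for either chain. FTH1 divided by FTL was 1.50, 1.48 and 1.58 in CAOV3 controls and 7.38, 7.39 and 7.49 in TOV21G controls. With ascites the ratio was 1.41 to 1.63 and 7.34 to 7.70, ranges that overlap those of the controls.

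NCOA4 was 1.91 times as high in TOV21G controls (log2 difference 0.93, SE 0.05; limma adjusted p = 1.16e-09). ACO1 was 6.75 times as high, with 13890 ± 374 against 2059 ± 51.6 (SD, n = 3 each) and a log2 difference of 2.75 (SE 0.04; limma adjusted p = 1.48e-15). IREB2 was 0.850 times as high (log2 difference -0.23, SE 0.05; limma adjusted p = 0.000623), so the 2 regulators differed between the lines in opposite directions.

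On the uptake side, STEAP3 was 78.2% lower in TOV21G controls (log2 difference -2.20, SE 0.04; limma adjusted p = 2.85e-14) and SLC39A14 was 56.7% lower (log2 difference -1.21, SE 0.04; limma adjusted p = 1.04e-11). SLC40A1 was 74.1% lower, from 59.9 ± 8.12 to 15.5 ± 8.02 (SD, n = 3 each; log2 difference -2.03, SE 0.40; limma adjusted p = 0.000335). TFRC and SLC11A2 did not pass. Their log2 differences were -0.01 (95% interval -0.10 to 0.08) and -0.01 (95% interval -0.09 to 0.06).

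Levels can be set side by side between genes only per length, here as normalised counts per kb of all annotated exons joined. In CAOV3 controls the order was FTL (56968), FTH1 (37395), TFRC (2437), NCOA4 (1541), SLC39A14 (1041), STEAP3 (515), IREB2 (381), ACO1 (273), SLC11A2 (180) and SLC40A1 (13.8). In TOV21G controls it was FTH1 (149826), FTL (46706), NCOA4 (2935), TFRC (2414), ACO1 (1839), SLC39A14 (451), IREB2 (324), SLC11A2 (178), STEAP3 (112) and SLC40A1 (3.59). Within each line, every library of a gene in these orders was above every library of the next gene. On this scale FTH1 and FTL change places between the lines, as do TFRC and NCOA4. ACO1 is at position 8 in CAOV3 and position 5 in TOV21G. These orders rest on the exon lengths used, such as 2030 bases for FTH1 and 878 for FTL. Before division by length, mean FTH1 was above mean FTL in CAOV3 controls too, at 75911 against 50018. Mean TFRC was likewise above mean NCOA4 in TOV21G controls, at 19038 against 11974.

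The TOV21G libraries varied inside their groups in a way that many genes shared. The leading axis of that variation, over 12376 genes, held 67.7% of the variance within groups, with control 1 and ascites 2 at one end and control 2 and ascites 3 at the other. Over the 6 libraries, FTL, FTH1, SLC39A14, ACO1 and NCOA4 followed the axis, with Pearson's r of 0.997, 0.983, 0.973, 0.958 and 0.956. SLC40A1 (0.834), TFRC (0.670) and SLC11A2 (0.574) followed it less, STEAP3 hardly (0.131) and IREB2 inversely (-0.769). These are descriptions over 6 libraries that share the axis itself. In CAOV3 the leading axis held 34.8%, and the r values were 0.939 for FTL and 0.629 for FTH1, and -0.846, -0.875, -0.780 and -0.681 for TFRC, IREB2, SLC39A14 and NCOA4. There SLC11A2, ACO1, SLC40A1 and STEAP3 had r values of 0.527, 0.514, -0.614 and 0.012. Whether what moves the libraries along the axis has a part in the TOV21G differences was not tested.

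**Figure D4:**
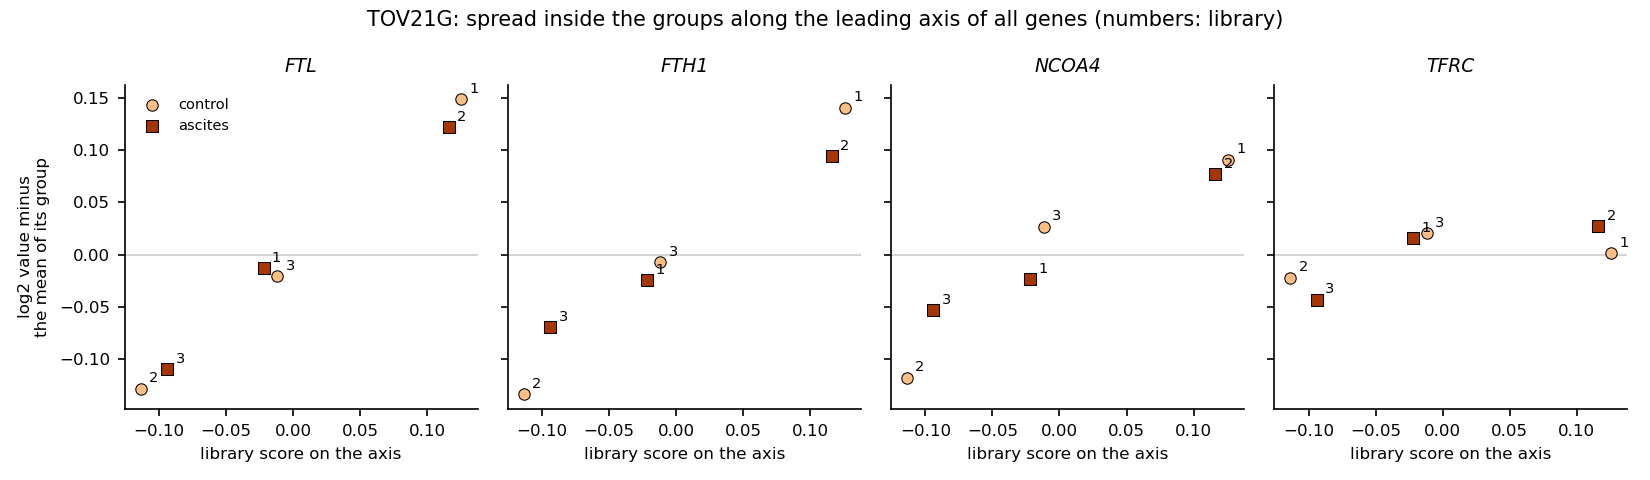
For FTL, FTH1, NCOA4 and TFRC in TOV21G, the log2 value of each library minus its group mean (y axis) against the library's score on the leading within-group axis (x axis), with circles for controls and squares for ascites. FTL, FTH1 and NCOA4 rise along the axis from control 2 to control 1, and TFRC shows a narrower spread.

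The 3 genes whose values were most like those of TFRC over the 12 libraries, each centred on the mean of its line, were MEGF9 (Pearson's r 0.979), the fatty acid desaturase FADS1 (0.975) and the sterol sensor partner INSIG1 (0.966). With ascites these 3 had log2 differences of -0.28, -0.32 and -0.87 in CAOV3 and of -0.07, -0.15 and -0.55 in TOV21G. All 3 passed in CAOV3 (limma adjusted p = 0.00203, 0.000614 and 8.27e-07). In TOV21G INSIG1 passed and MEGF9 and FADS1 did not (limma adjusted p = 0.000199, 0.616 and 0.138). Centring on the line left the ascites difference in the values, so these falls are part of the likeness and not separate from it. For FTH1 the 3 genes most alike were the calpain subunit CAPNS1 (0.985), the recycling endosome GTPase RAB11B (0.972) and the elongation factor subunit NELFCD (0.970). None of those 3 passed with ascites in either line, at limma adjusted p of 0.656 or above.

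Among 77 other genes of iron and haem handling, in 7 lists, 61 were listed and tested. With ascites in CAOV3, 1 of 61 passed, near the 1.73% of all genes. It was BLVRA, which turns biliverdin from haem into bilirubin and was lower, with 1096, 1186 and 1124 in controls and 905, 953 and 975 with ascites (log2 difference -0.27, SE 0.05; limma adjusted p = 0.0227). In TOV21G 0 of 61 passed (limma), with 5 at an unadjusted p under 0.05, near the 9.17% of all genes. The median log2 difference was 0.01 in CAOV3 and -0.05 in TOV21G, against -0.0021 and -0.02 over all genes tested. Between the lines' responses 0 of 61 passed (limma), with 7 at an unadjusted p under 0.05, near the 11.9% of all genes.

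Of 4 other mRNAs on the list of those with an iron responsive element, 0 passed in either line, with 1 at an unadjusted p under 0.05 in each. EPAS1, the hypoxia factor HIF-2α, had log2 differences of -0.10 in CAOV3 and -0.13 in TOV21G (limma adjusted p = 0.428 and 0.419). CDC14A, a phosphatase, had -0.08 and -0.05, and CDC42BPA, a kinase, had -0.21 and 0.09 (0.230 and 0.734). The search described above found a match in EPAS1 and CDC14A and none in CDC42BPA. In the wider search, 29 tested genes had a 3′ UTR match in either form, with a median log2 difference of 0.0012 in CAOV3. Of these, 2 were called lower in CAOV3, against 1.1% of all genes. They were TFRC and SLC11A2, the members already described. Of 7 tested genes with a 5′ UTR match, 0 passed in CAOV3 and 0 in TOV21G, against 1.73% and 0.409% of all genes.

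Between untreated lines, 52 of the 61 genes passed, 24 higher and 28 lower in TOV21G, near the 82.2% of all genes, so the counts by list that follow describe the lists and set none apart. Of the iron entry genes outside the members, 2 of 8 were higher and 5 lower in TOV21G. TFR2, a second transferrin receptor, had means of 337 ± 10.7 in CAOV3 and 665 ± 63.3 in TOV21G (SD, n = 3 each). Of the same family as STEAP3, STEAP1 was lower at 413 ± 14.6 against 36.3 ± 2.52, and STEAP2 at 529 ± 19.0 against 8.53 ± 3.08. SLC39A8, a transporter of the same family as SLC39A14, was at 892 ± 38.3 against 49.5 ± 0.976. SLC22A17, a receptor for the siderophore carrier lipocalin, was at 2.59 ± 2.34 against 247 ± 25.9.

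Of the haem genes, 5 of 9 were higher and 4 lower in TOV21G. HMOX1, which opens the haem ring and frees its iron, was at 162 ± 4.17 in CAOV3 and 3298 ± 252 in TOV21G controls (log2 difference 4.34, SE 0.08; limma adjusted p = 1.45e-14; SD, n = 3 each). SLC48A1, which carries haem out of the lysosome, was at 611 ± 35.1 against 7445 ± 460.1, and BLVRB, a second biliverdin reductase, had a log2 difference of 1.31. The exporter ABCG2 was at 473 to 546 in CAOV3 controls and at 0, 0 and 2.17 in TOV21G controls, and the haem carriers FLVCR1 and FLVCR2 had log2 differences of -1.17 and -1.20. With ascites, HMOX1 in TOV21G read 2650, 3035 and 2616 against 3581, 3099 and 3212, all below the controls, and did not pass (log2 difference -0.25, SE 0.08; limma adjusted p = 0.348).

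**Figure D5:**
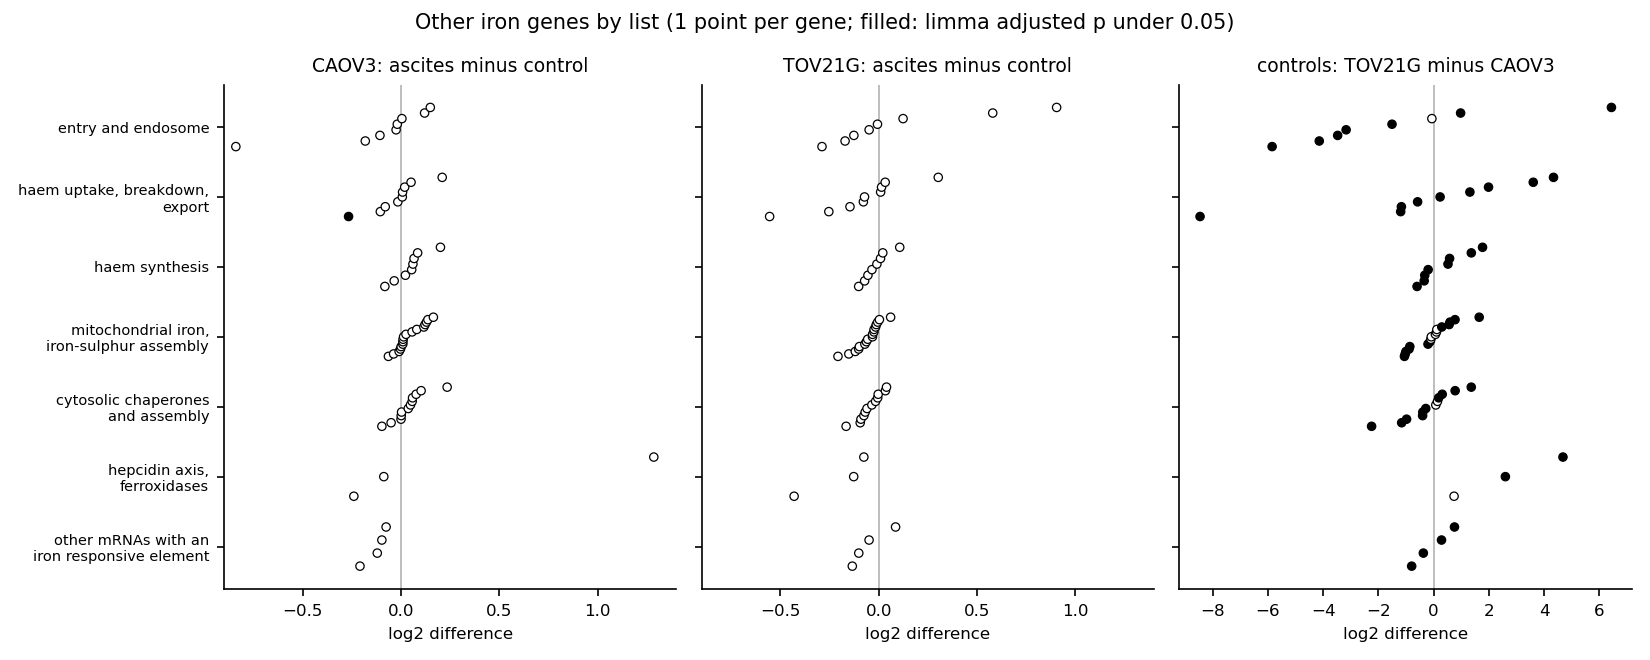
Log2 differences (x axis) of 61 other iron genes in 7 lists, 1 point per gene, with ascites against control in CAOV3 and in TOV21G on the same axis range and between untreated lines on a wider one. The only filled point (limma adjusted p under 0.05) with ascites is BLVRA in CAOV3, while 52 points are filled between the lines.

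Haem synthesis genes split evenly between the lines, with 4 of 8 higher in TOV21G, among them UROS (log2 difference 1.77) and FECH (1.36), which inserts iron into haem. The other 4 were lower, among them UROD (-0.60), ALAD (-0.34) and ALAS1 (-0.32), the enzyme of the first step. Of 17 genes of mitochondrial iron and iron-sulphur assembly, 5 were higher and 7 lower. FDXR (1.65), SLC25A28 (0.77), an iron importer of mitochondria, and NFU1 (0.59) were the furthest up, and CISD1 (-1.06), the cysteine desulphurase NFS1 (-1.03) and FDX1 (-1.003) the furthest down.

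Of 12 genes of cytosolic chaperones, cluster assembly and control of the iron regulatory proteins, 4 were higher and 6 lower in TOV21G. FBXL5, the iron-sensing subunit of the ligase that degrades IREB2, was at 810 ± 1.77 in CAOV3 and 2084 ± 115 in TOV21G controls (SD, n = 3 each; log2 difference 1.36). CIAO3 (0.78) and NUBP1 (0.31) were also higher. ZFP36 (-2.25), an mRNA decay factor, CIAO1 (-1.16) and CIAO2A (-0.98) were lower. On the hepcidin side, where 3 of 9 genes were listed, NEO1 (4.68) and HFE (2.60) were higher. From the list of other mRNAs with an iron responsive element, EPAS1 (0.75) and CDC42BPA (0.28) were higher and CDC14A (-0.80) was lower.

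Some counts can be shared with near-identical copies. The 12 listed pseudogenes of FTH1 summed to 0.432% to 0.506% of FTH1 in a library, and the 3 of FTL to 0.0659% to 0.110% of FTL, and how reads were split between them and the parent genes is uncertain. FTH1 overlaps BEST1 on the opposite strand, which reached 332 at most. TFRC, SLC11A2, SLC39A14, STEAP3 and IREB2 each overlap 1 or 2 annotated genes that were not among those listed. Strandedness is not given in the sources used here.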

How the data were processed

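The authors deposited 1 normalised count (a signal that is never negative) per gene and library. The submitters' processing notes name Trim Galore, cutadapt, STAR, HTSeq and DESeq, and the build, annotation and strandedness are not given in the sources used here. In each library 100% of the deposited values were whole multiples of 1 step (within 0.01 read), and the steps match median-of-ratios size factors over the 12 libraries, so values are comparable across all of them. Symbols came from a gene name table (17030) and GENCODE 29 (2193); 28 identifiers had none.

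log2(value + 1) was fitted with limma 3.58.1 (R 4.3.3; trended eBayes) in 1 model of 4 group means, adjusted by Benjamini-Hochberg over 17616 genes, with calls at an adjusted p under 0.05. This scale understates changes of low genes. Scripts were tested on simulated data. edgeR 4.0.16 and DESeq2 1.42.0 on the recovered reads were alternatives: edgeR called 511 genes in CAOV3, 114 in TOV21G, 148 for the difference and 14581 between lines, against 305, 72, 96 and 14480 with limma. Other alternatives were pseudocounts of 0.5 and 5, TMM and upper quartile scaling, no filter, a replicate block, the compared libraries alone, library weights, and each library left out. Replicate pairs differed by 1.81 to 22.6 times the chi-square of counting noise over 12 pairs, so none is a copy.

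All members were named; of the other iron genes, those called with ascites and, between lines, up to 3 called per list and direction by size with a mean of at least 10; and the 3 genes most alike to TFRC and FTH1. A few genes that this rule names are not reported here. The members and lists were chosen with earlier results of these data known.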

Additional observations from a re-analysis of the deposited data

Results flagged for a closer look

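The response of TFRC to ascites differed between the lines: the TOV21G response minus the CAOV3 response was 0.33 on the log2 scale (SE 0.06; limma adjusted p = 0.0264, 17616 genes tested). The fall was 28.9% in CAOV3 and 10.7% in TOV21G, with all 3 ascites libraries below all 3 controls in each line. The call was lost in 8 of the 12 fits that left out a library (adjusted p from 0.0512 to 0.0930).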

How the results depend on the processing

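The fall of TFRC in CAOV3 passed in all 9 alternatives and all 12 fits without a library. Of 360 values of single members under alternatives, 342 kept their direction and their side of the threshold, and 449 of 480 did so with a library left out.

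The replicate numbers showed no clear pairing of the samples, though 3 libraries per group cannot exclude it. Same-numbered libraries correlated by -0.05, 0.10 and 0.04 in CAOV3 and by -0.26, -0.68 and 0.07 in TOV21G. Of the libraries, 3 of 6 and 0 of 6 were most like their own number. With a replicate block, 1 member passed in CAOV3 (SLC11A2 adjusted p = 0.0909) and 0 for the difference (TFRC adjusted p = 0.343), and the calls over all genes were 116 (CAOV3), 13 (TOV21G) and 9 (difference).

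DESeq2 called 1 member in TOV21G. All genes called were 511 (edgeR) and 507 (DESeq2) in CAOV3, 114 and 150 in TOV21G and 148 and 212 for the difference, where upper quartile scaling gave 154. Fitted alone, TOV21G gave 8. In TOV21G 34.7% of calls were higher with limma and 44.7% with edgeR. Library weights, whose estimation stopped before its tolerance, called 4 members and 1794 genes for the difference. The cause of these shifts was not tested.

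With 1 library left out, CAOV3 kept 2 called members, TOV21G had 0 and the difference 0 to 1, with 172 to 344, 24 to 136 and 40 to 146 calls over all genes.

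Signs turned only for differences that had not passed. With edgeR, TMM and upper quartile scaling, SLC39A14 in TOV21G was 0.019, 0.018 and 0.019, ACO1 there was 0.020, 0.018 and 0.019, and the difference for SLC39A14 was 0.0053, 0.0040 and 0.0052. The difference for SLC40A1 was -0.017 with library weights, and TFRC and SLC11A2 between lines were 0.0025 and 0.0020 with TMM. Without 1 library the ranges that crossed 0 were, in CAOV3, STEAP3 -0.0017 to 0.039, FTH1 -0.036 to 0.016, FTL -0.058 to 0.043, NCOA4 -0.038 to 0.0073 and SLC40A1 -0.46 to 0.026. In TOV21G they were SLC39A14 -0.044 to 0.034, SLC40A1 -0.56 to 0.22, ACO1 -0.039 to 0.023 and IREB2 -0.0092 to 0.072. For the difference they were SLC39A14 -0.060 to 0.018 and SLC40A1 -0.34 to 0.45, and between lines TFRC -0.032 to 0.019 and SLC11A2 -0.029 to 0.0018. Low counts limit SLC40A1 most.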
